A study of Mus musculus with 2 samples.

Results

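The genes described here encode the parts of epithelial tight junctions and desmosomes, the simple keratins, the apical polarity proteins and a few regulators and surface proteases of epithelia. They are 43 named genes of the 54713 rows in the deposited table, taken by gene symbol, and each symbol matched 1 row. RNA was sequenced from sublines of SV40 MES13, a mouse kidney line that the labels call mesangial, the contractile support cell type of the glomerulus. One subline (Lv_AI662270) had been infected with a lentivirus for the long noncoding RNA AI662270 and the other (Lv_NC, the control, with a wild-type genotype in its label) with a control virus. Both were selected in 0.5 mg/ml puromycin, kept in 0.25 mg/ml puromycin with 10% serum and labelled as otherwise untreated, and neither the viral promoter nor whether a subline is 1 clone is given in the sources used here. With 1 library for each subline the differences have no replicate check and no p-value, and every comparison is of 2 libraries rather than of 2 conditions.

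Tight junctions seal the space between neighbouring epithelial cells. Claudins form the strands and set which ions pass, occludin and related four-span proteins stabilise the strands, and scaffold proteins such as ZO-1 and cingulin tie them to actin. Desmosomes anchor keratin filaments at the cell border, and the Par and Crumbs complexes mark out the apical surface. In the kidney these genes are known from the tubules, collecting ducts and the parietal cells of the glomerulus, while mesangial cells are of mesenchymal origin and carry few of them.

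Promoter windows are shown first because many of these genes share a short element in them. RefSeq promoter windows of build GRCm38.p6, from 250 bases before to 50 bases after a start site, were matched for 31 of the 43 genes, 23 of them measured. The E-box CAGGTG, searched on both strands, is the element that the SNAI and ZEB repressors of epithelial genes are known to bind. The 7 windows below belong to 2 neighbouring gene pairs, Krt8 with Krt18 and Cldn4 with Cldn3, and to Ocln, Crb3 and Pard6b, and capitals mark the E-box. They lie at chr15:102004293-102004592 on the minus strand for Krt8, chr15:102027966-102028265 on the plus strand for Krt18, chr5:134946885-134947184 on the minus strand for Cldn4, chr5:134985964-134986263 on the plus strand for Cldn3, chr13:100552669-100552968 on the minus strand for Ocln, chr17:57061951-57062250 on the plus strand for Crb3 and chr2:168080754-168081053 on the plus strand for Pard6b.
Krt8: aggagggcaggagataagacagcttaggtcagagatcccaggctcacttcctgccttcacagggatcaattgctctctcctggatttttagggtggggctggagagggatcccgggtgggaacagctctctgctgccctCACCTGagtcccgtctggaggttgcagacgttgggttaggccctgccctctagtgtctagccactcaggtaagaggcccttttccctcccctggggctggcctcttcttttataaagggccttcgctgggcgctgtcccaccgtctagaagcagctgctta
Krt18: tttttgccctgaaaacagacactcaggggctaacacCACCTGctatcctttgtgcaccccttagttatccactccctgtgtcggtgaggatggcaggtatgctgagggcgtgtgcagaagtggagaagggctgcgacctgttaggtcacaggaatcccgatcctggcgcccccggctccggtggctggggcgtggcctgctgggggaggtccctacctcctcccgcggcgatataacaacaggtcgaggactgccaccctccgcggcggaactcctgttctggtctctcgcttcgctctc
Cldn4: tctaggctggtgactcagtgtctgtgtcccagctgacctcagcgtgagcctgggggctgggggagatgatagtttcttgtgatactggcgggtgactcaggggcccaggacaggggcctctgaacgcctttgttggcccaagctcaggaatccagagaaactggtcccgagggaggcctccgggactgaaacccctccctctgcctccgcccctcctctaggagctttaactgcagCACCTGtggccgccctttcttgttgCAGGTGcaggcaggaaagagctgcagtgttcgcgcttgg
Cldn3: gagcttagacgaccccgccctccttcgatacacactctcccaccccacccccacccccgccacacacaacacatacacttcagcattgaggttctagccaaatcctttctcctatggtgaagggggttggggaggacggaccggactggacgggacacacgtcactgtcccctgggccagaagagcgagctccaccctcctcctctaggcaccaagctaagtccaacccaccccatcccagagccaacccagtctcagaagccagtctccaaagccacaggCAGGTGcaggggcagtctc
Ocln: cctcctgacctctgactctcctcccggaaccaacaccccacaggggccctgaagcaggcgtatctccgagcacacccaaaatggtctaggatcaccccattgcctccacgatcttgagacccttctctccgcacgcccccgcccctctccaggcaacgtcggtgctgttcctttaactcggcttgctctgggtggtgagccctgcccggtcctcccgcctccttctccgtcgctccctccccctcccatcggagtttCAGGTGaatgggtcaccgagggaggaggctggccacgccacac
Crb3: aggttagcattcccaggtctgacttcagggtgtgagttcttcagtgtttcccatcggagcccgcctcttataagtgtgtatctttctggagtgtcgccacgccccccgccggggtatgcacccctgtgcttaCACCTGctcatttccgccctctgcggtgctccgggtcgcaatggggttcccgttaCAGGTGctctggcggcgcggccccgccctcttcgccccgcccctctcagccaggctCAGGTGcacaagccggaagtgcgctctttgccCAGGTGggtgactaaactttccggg
Pard6b: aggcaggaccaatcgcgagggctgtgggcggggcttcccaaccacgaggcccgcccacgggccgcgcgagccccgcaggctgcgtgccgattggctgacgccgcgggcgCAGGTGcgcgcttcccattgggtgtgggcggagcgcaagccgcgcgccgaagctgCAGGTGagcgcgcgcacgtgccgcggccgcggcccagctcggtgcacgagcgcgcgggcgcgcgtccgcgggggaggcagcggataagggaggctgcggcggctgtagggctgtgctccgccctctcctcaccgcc

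Among the measured genes of the set with a window, 14 of 23 held the E-box in at least 1 window, or 60.9%, against 2030 of 9641 among all measured genes with a window (21.1%) and 6098 of 27025 among all genes in the promoter table (22.6%). Crb3 held 4 matches in the window shown. In Cldn4 the matches began 14 bases before and at base 12 after the start site, and in Ocln at base 8. The match began 111 bases before the start site in Krt8 and 214 bases before it in Krt18. Of the 7 genes with a window that were lower in the Lv_AI662270 library by the rule given below, Cldn4, Ocln, Krt7, Krt18 and Pard6b held the E-box (71.4%) and Cldn1 and Prkci did not. Of the 16 measured genes with a window that did not pass that rule, 9 held it (56.25%), so its presence did not divide the genes that passed from those that did not. The GC box GGGCGG stood in 82.6% of the 23 genes and 70.7% of all measured genes, TATAAA in 13.04% and 8.11%, and the grainyhead element AACNGGTT in 4.35% and 2.13%, each searched on both strands. The TATAAA matches of the Krt8 window overlap each other on the 2 strands. Median GC content was 61.3% over the windows of measured genes of the set and 61% over those of all measured genes. A match is a string of letters and was not tested as a binding site.

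**Figure D1:**
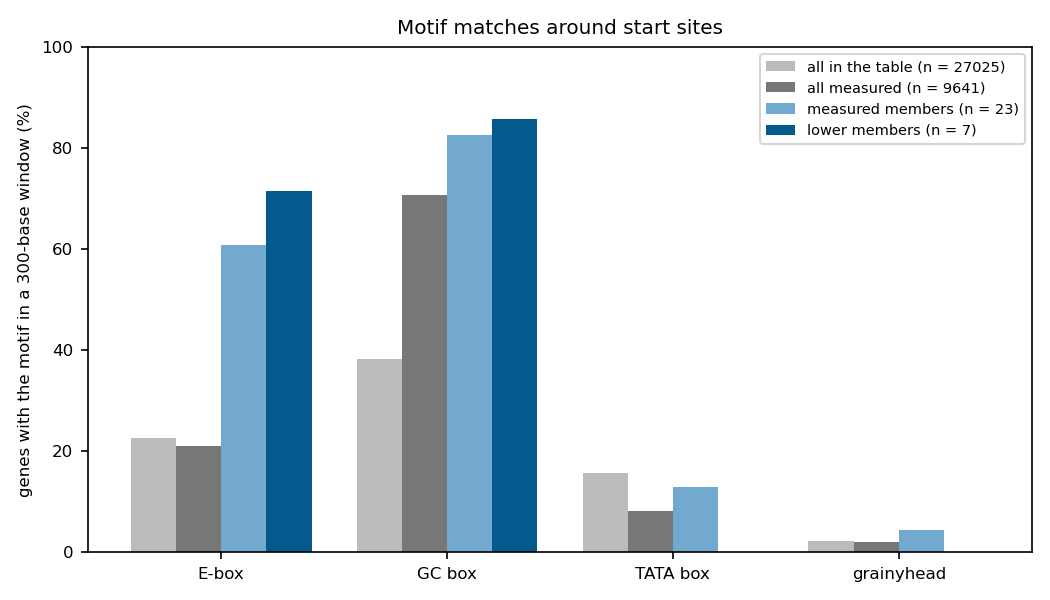
Share of genes (vertical axis, %) with each motif in a 300-base window around a start site, for all genes of the promoter table, all measured genes, the measured genes of the set and those lower in the Lv_AI662270 library. The E-box bars stand at 22.6%, 21.1%, 60.9% and 71.4%, while the other motifs are closer between all measured genes and the set.

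The control library held 15727023 counts and the Lv_AI662270 library 15062482, and AI662270 itself had 0 and 241 counts, so the library labelled with it held its transcript. The treatment text of both samples names Sox9, not AI662270, as the stably expressed gene that was checked, and Sox9 had 234 and 97 counts, a ratio of 0.404 (0.316 to 0.515). Levels are given as CPM, a gene's counts scaled to the size of its library. Genes whose mean over the libraries reached 1 CPM are called measured, and 33 of the 43 did so. Levels of single genes are ranked only per length, as CPM per kb of gene length, and sums over a list serve only to set the libraries side by side. The length is the deposited gene length, which may be longer than the transcript expressed here.

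Against the mesangial label, some of the epithelial genes were among the abundant transcripts of both libraries. Others were low, and 10 of the 43 were not measured. By level per length in the control, Ocln, Dsg2 and Grhl2 lay above only 40.3%, 10.5% and 10.1% of measured genes. In the control library 9 of the 43 genes lay in the top 10% of all measured genes by level per length, and in the Lv_AI662270 library 6 did. Krt18 had a level of 545 CPM per kb in the control, above 99.8% of measured genes, and Krt8 117, Prkci 106 and Epcam 90.6. The mesenchymal genes Fn1 and Vim were abundant too, at 114 and 109 CPM per kb for Fn1 and 46.6 and 120.1 for Vim. Of 18 mesangial and pericyte markers 8 were measured, with summed levels of 83.7 and 129 CPM in the control and Lv_AI662270 libraries, and Itga8, Rgs5, Ren1, Thy1 and Gucy1a1 had 0 counts in both. Pdgfrb, the growth factor receptor that marks mesangial cells and pericytes, had 185 and 338 counts, and Des had 26 and 58. The smooth muscle actin gene Acta2 and the receptor gene Notch3 were higher in the Lv_AI662270 library, with 12 and 171 and 123 and 512 counts, and Mcam had 448 and 549 and Foxd1 356 and 264 counts. The segment-specific tubule genes Slc34a1, Umod, Aqp2 and Kcnj1 had 0 counts in both libraries, although the endocytic receptor gene Lrp2 had 693 and 740 counts and the magnesium channel gene Trpm6 725 and 589. Of the proximal tubule list 4 genes were measured, 1 of them lower and 1 higher by the rule given below. The water channel gene Aqp1 was the lower one, with 232 and 64 counts. Havcr1 was the higher one, with 17 and 47 counts, and Cubn had 33 and 73 without reaching the rule. Of the collecting duct list Hsd11b2 had 105 and 101, Scnn1a 88 and 57 and Aqp3 42 and 42 counts. The kidney epithelial transcription factor genes Pax8 and Pax2 had 2812 and 1803 and 894 and 962 counts. Endothelial markers were led by Flt1 and Egfl7, with Tek, Emcn and Tie1 at 0 counts and 1 and 0 counts for Cdh5. Of 8 leukocyte markers, Cd68 and Csf1r were measured, and Ptprc had 5 and 1 counts.

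**Figure D2:**
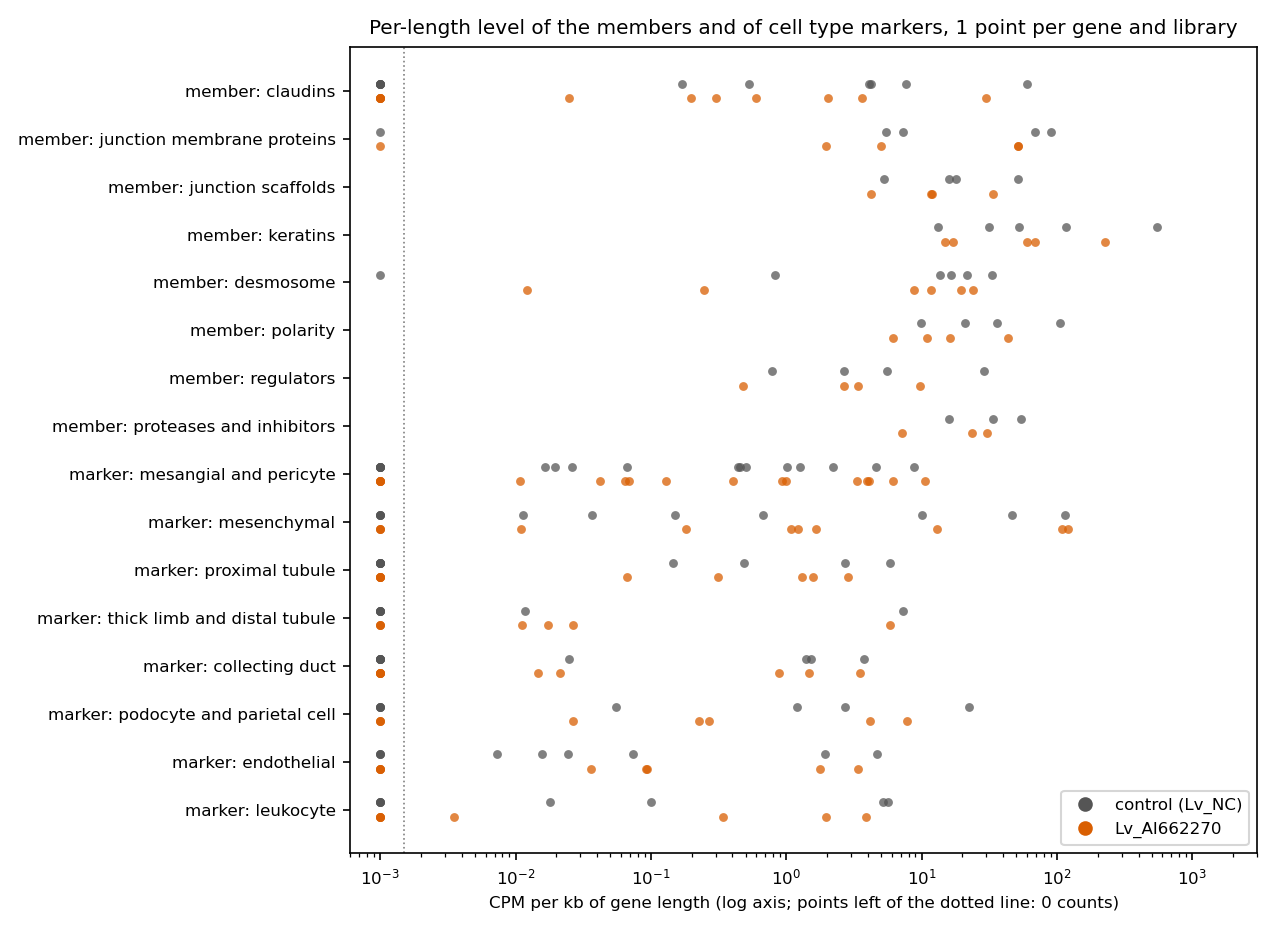
Level per length (horizontal axis, CPM per kb, log scale) of each gene of the set by role and of markers of 8 cell classes, 1 point per gene and library. Keratin, polarity and scaffold genes lie above 5 CPM per kb in the control. Of the claudins only Cldn1 and Cldn12 do, and Dsg2, Dsc2, Grhl2 and Ovol1 lie below that level. Most mesangial, tubule, endothelial and leukocyte markers lie below it or at 0 counts, whereas the mesenchymal markers Fn1, Vim and Cdh2 lie above it.

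The epithelial genes were lower as a group in the Lv_AI662270 library. By the rule of size used here, which asks for a log2 ratio (pseudocount 0.5 CPM) beyond -1 or 1 and a 95% exact counting interval that leaves out equality, 11 of the 33 measured genes were lower (33.3%) and 0 were higher. Over all 13268 measured genes the same rule took 5.72% as lower and 5.59% as higher. The 11 genes were Cldn1, Cldn4, Ocln, Krt7, Krt18, Dsg2, Pard6b, Prkci, Esrp1, Esrp2 and St14. Of the 20 genes of the set whose mean reached 50 CPM, 6 were lower (30%), against 5.2% of the 5152 measured genes at that level, where 1.3% were higher. The 43 genes together summed to 4858 CPM in one library and 2724 in the other. The median log2 ratio of the 33 genes was -0.82, and that of all measured genes -0.02. Ratios were below 1 in 29 of the 33 genes (87.9%), against 51.3% of all measured genes, and for each of those 29 the counting interval lay below 1 as well. Over all measured genes the interval lay below 1 in 35.8%. At a mean of at least 50 CPM it did so in 90% of the genes of the set and 49.7% of all measured genes. The 4 genes with a ratio above 1 were Krt19, Krt20, Pkp2 and Ovol1, and the interval of Ovol1 included 1. In bulk RNA, fewer cells of a type and less RNA per cell cannot be told apart. Beside this shift, the mesenchymal marker Vim, a fibroblast intermediate filament gene, had 3360 and 8872 counts, and of 11 mesenchymal markers 5 were measured, 2 of them higher and 0 lower, with summed levels of 1645 and 1968 CPM and with Col1a2, Col3a1 and Lum at 0 counts. Fn1, the fibronectin gene, had 20327 and 19862 counts. Of 8 measured mesangial and pericyte markers 2 were higher and 1 lower, and of 3 measured podocyte and parietal cell markers 2 were lower, with summed levels over that list of 153 and 84.4 CPM and Nphs1 at 0 counts. The part of these cell markers in the difference was not tested.

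**Figure D3:**
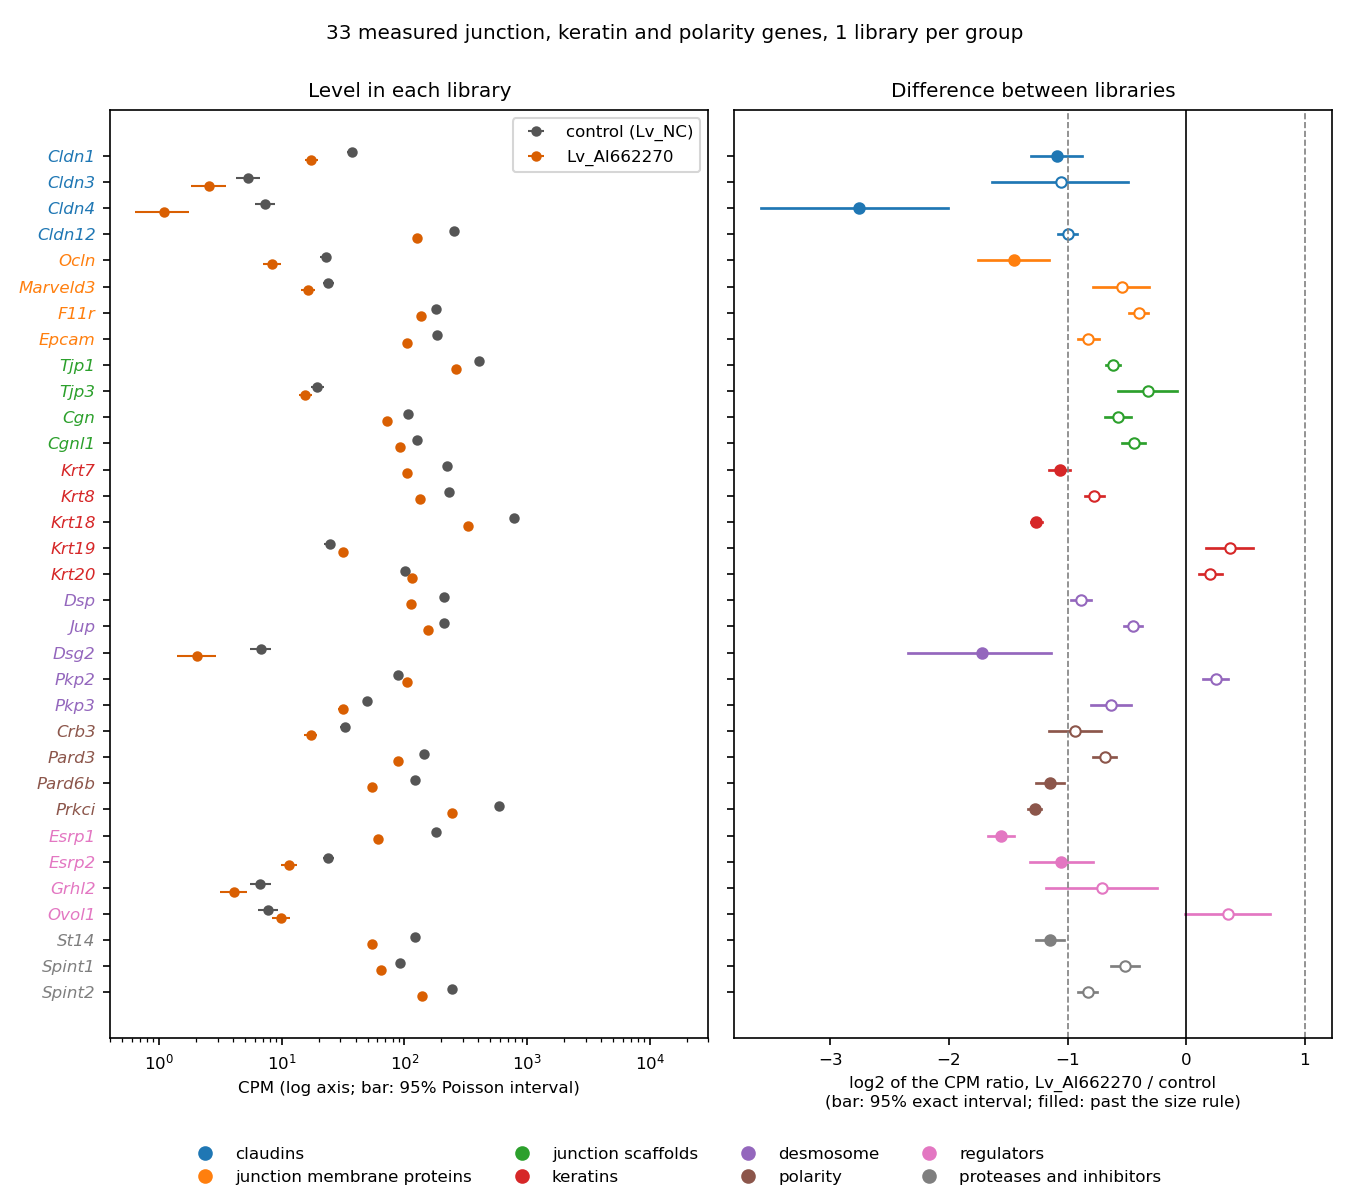
Left, CPM of the 33 measured genes in each library (log axis) with 95% Poisson intervals. Right, log2 of the CPM ratio of Lv_AI662270 over control with its 95% exact interval, drawn without the pseudocount, where filled points passed the size rule and dashed lines mark -1 and 1. All but Krt19, Krt20, Pkp2 and Ovol1 lie left of 0.

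**Figure D4:**
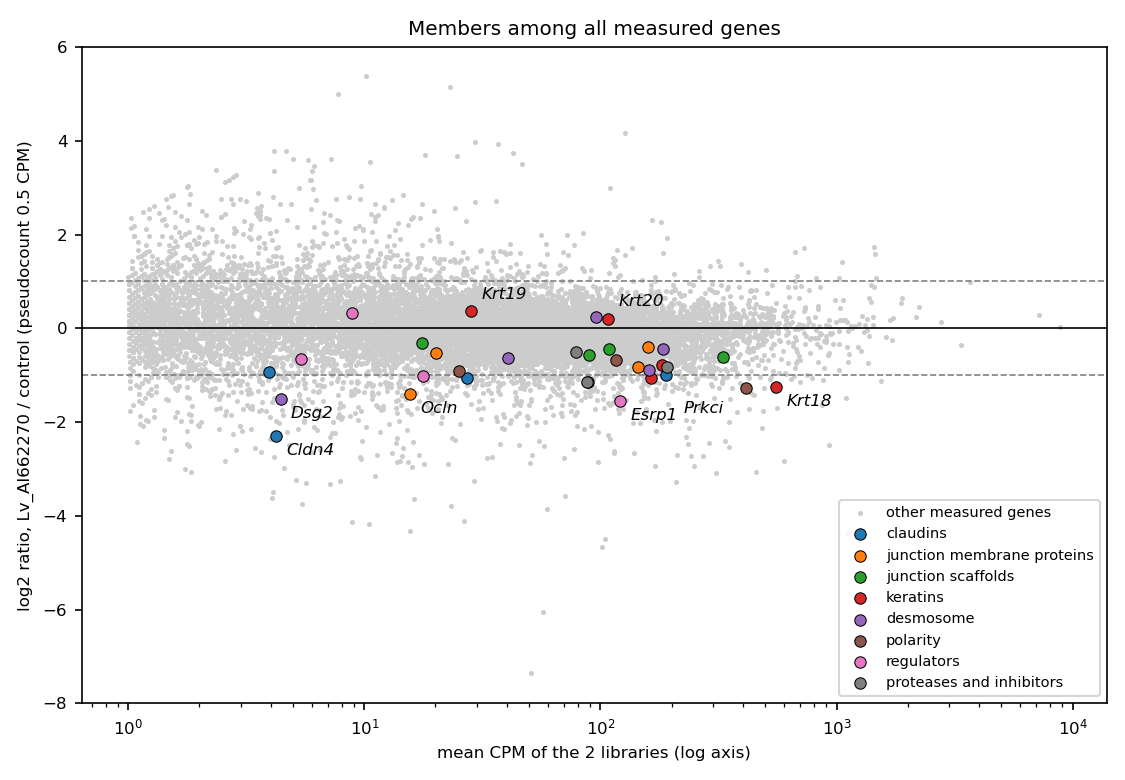
Log2 ratio (vertical axis, pseudocount 0.5 CPM) against mean CPM (log axis) for all 13268 measured genes in grey and the 33 genes of the set in colour by role. The coloured points lie mostly below 0 over the whole range of levels, with Cldn4 lowest at -2.31.

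Claudins, the strand-forming proteins, were carried by few of the 12 genes in the set. Cldn12, a claudin without the usual PDZ-binding tail, made up 78.3% of the summed claudin level per length in the control and 81.6% in the Lv_AI662270 library. It had 3859 counts in the control and 1978 in the Lv_AI662270 library, levels of 254 and 127 CPM, and was 1.999-fold lower (1.89 to 2.11), just short of the rule of size with a log2 ratio of -0.997. Cldn4 (chromosome 5, 134945119 to 134946934, minus strand in build mm10), a claudin of the collecting duct, had 112 and 17 counts, or 7.37 CPM (6.07 to 8.86) and 1.09 CPM (0.636 to 1.75). It was 6.75-fold lower (4.03 to 12.001), the furthest from 1 in the set. Cldn3, which lies 39279 bases away, had 81 and 40 counts, 2.08-fold lower (1.404 to 3.11), but its log2 ratio of -0.93 with the pseudocount did not reach the rule. The 2 intervals do not overlap, so the ratios of these neighbours differed by more than counting error. Cldn1 (chromosome 16, 26356642 to 26371841, minus strand), a barrier claudin also found in parietal cells, had 563 and 271 counts, 2.13-fold lower (1.84 to 2.47). With total-count scaling or on the deposited FPKM values it missed the rule. The other claudins were at or near absence. Cldn2, the cation pore claudin of the proximal tubule, Cldn5 of endothelium, Cldn6, Cldn8 and Cldn19 had 0 counts in both libraries, which allows up to 3 counts per library, or 0.197 and 0.193 CPM. Cldn10 had 0 and 1 counts, Cldn7 5 and 6, and Cldn15 17 and 10, all under the minimum of 1 CPM.

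Among the other membrane proteins of the junction, occludin stood apart. Ocln (chromosome 13, 100496507 to 100552718, minus strand) had 347 and 130 counts, or 22.8 CPM (20.5 to 25.4) and 8.34 CPM (6.97 to 9.91), and was 2.74-fold lower (2.23 to 3.37). Its paralogue Marveld2, which encodes tricellulin of three-cell contacts and lies 43238 bases away, had 0 counts in both libraries. Marveld3 had 363 and 255 counts and a ratio of 0.685 (0.582 to 0.807). F11r, which encodes the adhesion molecule JAM-A, had 2763 and 2143 counts and a ratio of 0.757 (0.715 to 0.801). Epcam, the epithelial cell adhesion molecule gene, had 2810 and 1626 counts and a ratio of 0.565 (0.531 to 0.600). None of Marveld3, F11r and Epcam reached the rule, yet each interval lay below 1, and the interval of Ocln lay below all 3.

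Of the cytoplasmic scaffolds 0 of 4 passed the rule, and their median log2 ratio was -0.51. Tjp1, which encodes ZO-1, had 6100 and 4077 counts, levels of 401 and 262 CPM, and a ratio of 0.652 (0.627 to 0.679). Cgn, the cingulin gene, had 1635 and 1123 counts and a ratio of 0.670 (0.621 to 0.724), and its relative Cgnl1 had 1913 and 1441 counts and a ratio of 0.735 (0.686 to 0.787). Tjp3, the ZO-3 gene, had 297 and 243 counts and a ratio of 0.798 (0.671 to 0.949). It overlaps Apba3 on the opposite strand, which had 1161 and 818 counts, and without a known strand setting the reads of the 2 genes cannot be told apart. The scaffold intervals lie above that of Ocln, so the scaffold genes differed less than occludin beyond counting error.

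Keratins pair as type I with type II proteins to build filaments, and the 5 simple keratins went different ways. Krt18 (chromosome 15, 102028180 to 102032027, plus strand), the type I partner of keratin 8, had 11914 and 5085 counts, or 784 CPM (770 to 798) and 326 CPM (317 to 335), and was 2.40-fold lower (2.32 to 2.48). Krt8, its type II partner 23697 bases away, had 3482 and 2085 counts, or 229 and 134 CPM, and a ratio of 0.584 (0.553 to 0.617), which did not reach the rule. The intervals of Krt18 and Krt8 do not overlap, and the level of Krt18 per length was 4.66 times that of Krt8 in the control and 3.32 times in the Lv_AI662270 library. Krt7 (chromosome 15, 101411043 to 101430313, plus strand), a type II keratin of ducts, had 3361 and 1643 counts, 2.10-fold lower (1.98 to 2.23), and with scaling by total counts or upper quartiles it missed the rule. The type I keratins Krt19 and Krt20 went the other way without reaching the rule. Krt19, known from ducts, had 375 and 495 counts and a ratio of 1.29 (1.12 to 1.48). Krt20, known from intestine and urothelium and from injured tubules, had 1523 and 1798 counts and a ratio of 1.15 (1.08 to 1.23). The summed keratin level per length was 759 CPM per kb in the control and 387 CPM per kb in the Lv_AI662270 library. Krt18 made up 71.9% and 58.6% of it, and Krt20 6.85% and 15.5%. These values depend on the deposited gene lengths, 7049 bases for Krt7 and 1437 to 1958 bases for the other keratins of the set. If the Krt7 transcript is shorter, its part is understated. Krt8 and Krt18 have processed copies in the genome, of which Krt8-ps had 6 and 7 counts. How reads that match several places were counted is not given, so the share of Krt8 and Krt18 reads lost to copies is not known.

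**Figure D5:**
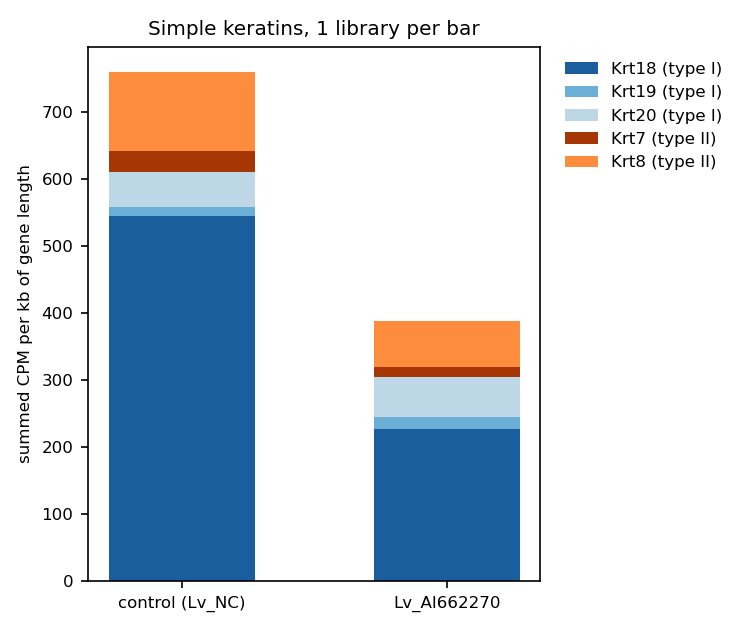
Summed level per length of the 5 simple keratins (vertical axis, CPM per kb) in each library, stacked by gene with type I in blue and type II in orange. The bar is 759 in the control and 387 in the Lv_AI662270 library, and most of the difference lies in the Krt18 block. The height of the Krt7 block depends on its deposited gene length of 7049 bases.

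Desmosome genes were unequal. Dsg2 (chromosome 18, 20558074 to 20604521, plus strand), the desmosomal cadherin of simple epithelia, had 103 and 32 counts, or 6.77 CPM (5.53 to 8.22) and 2.05 CPM (1.41 to 2.899), and was 3.30-fold lower (2.20 to 5.07). It did not pass the rule on the deposited FPKM values, where the pseudocount weighs more on a low gene. Dsc2, its usual partner cadherin, had 0 and 1 counts. Dsp, which encodes the desmoplakin that binds keratin filaments, had 3176 and 1761 counts and a ratio of 0.541 (0.510 to 0.574). Jup, the plakoglobin gene, shared with adherens junctions, had 3221 and 2420 counts and a ratio of 0.733 (0.695 to 0.773). The plakophilins, which link cadherins to desmoplakin, split. Pkp3 had 747 and 494 counts and a ratio of 0.645 (0.575 to 0.724), while Pkp2 had 1335 and 1624 counts and a ratio of 1.19 (1.10 to 1.28). The intervals of Pkp2 and Pkp3 lie on opposite sides of 1.

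Apical polarity genes were all lower in level, and 2 of 4 passed the rule. Prkci (chromosome 3, 30995747 to 31052959, plus strand), the atypical protein kinase C of the Par complex, had 8939 and 3785 counts, or 588 CPM (576 to 600.3) and 243 CPM (235 to 251), and was 2.42-fold lower (2.33 to 2.51). Pard6b (chromosome 2, 168081004 to 168101203, plus strand), the adaptor that binds this kinase, had 1848 and 854 counts, or 122 and 54.8 CPM, and was 2.22-fold lower (2.04 to 2.41). Pard3, the scaffold that positions the complex at junctions, had 2178 and 1385 counts and a ratio of 0.620 (0.580 to 0.664). The level of Prkci per length was 2.96 times that of Pard6b in the control and 2.71 times in the Lv_AI662270 library, and 10.7 and 7.14 times that of Pard3. The last 2 values depend on deposited gene lengths of 5551 bases for Prkci and 14506 bases for Pard3. Crb3, the small Crumbs protein gene of the apical membrane, had 500 and 268 counts, 1.91-fold lower (1.64 to 2.23), short of the rule. Crb3 overlaps Slc25a23 and Dennd1c on the opposite strand, with 616 and 657 and 129 and 112 counts.

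Of the 4 regulators, both epithelial splicing factors passed the rule. Esrp1 (chromosome 4, 11331933 to 11386783, minus strand) had 2745 and 953 counts, or 181 CPM (174 to 187) and 61.2 CPM (57.3 to 65.2), and was 2.95-fold lower (2.74 to 3.18). Esrp2 (chromosome 8, 106130319 to 106136974, minus strand) had 364 and 180 counts, 2.07-fold lower (1.73 to 2.49). Esrp2 lies close to the threshold and did not pass with total-count, DESeq2 or upper-quartile scaling, with a pseudocount of 2 CPM or on the deposited FPKM values, and it overlaps Nfatc3 on the opposite strand, which had 2453 and 3101 counts. The level of Esrp1 per length was 5.19 times that of Esrp2 in the control and 3.64 times in the Lv_AI662270 library. Grhl2, a grainyhead transcription factor that maintains junction genes, was low, with 102 and 64 counts and a ratio of 0.612 (0.441 to 0.845). Its antisense neighbour Gm16136 had 16 and 1 counts and cannot be separated from it without strand. Ovol1, a zinc finger repressor of mesenchymal genes, had 118 and 154 counts and a ratio of 1.27 (0.995 to 1.63), a difference within counting error.

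St14 (chromosome 9, 31089402 to 31131853, minus strand), which encodes the membrane serine protease matriptase, had 1840 and 851 counts, or 121 CPM (116 to 127) and 54.6 CPM (51.01 to 58.4), and was 2.22-fold lower (2.04 to 2.41). The genes of its inhibitors did not reach the rule. Spint1 had 1404 and 1006 counts and a ratio of 0.699 (0.644 to 0.759), and Spint2 had 3725 and 2146 counts and a ratio of 0.562 (0.533 to 0.593). Both intervals lie above that of St14. The summed level of the inhibitor genes per length was 5.50 times that of St14 in the control and 7.49 times in the Lv_AI662270 library.

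In the authors' deposited table, which compares 1 library with 1 library, 4 of the 35 genes of the set with a value had an adjusted p-value under 0.05, namely Cldn4, Ocln, Dsg2 and Esrp1, and all 4 had a lower level in the Lv_AI662270 library. Over all genes of the authors' deposited table, 897 of the 20667 with a value were under that threshold, 440 of them lower.

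The lower genes were spread over the genome. The 11 genes lie on 10 chromosomes, and the median log2 ratio of all measured genes on the chromosomes that carry measured genes of the set ranged from -0.14 to 0.11. Flanking genes that belong to the set themselves were left out of the counts that follow. These were Cldn3 and Cldn4, with log2 ratios of -0.93 and -2.31, and Krt8 and Krt18, with -0.77 and -1.26. Among the 61 other nearest measured genes that flank the measured genes of the set, 3 were lower and 3 higher, with a median log2 ratio of -0.07. Of the 20 that flank the 11 lower genes, 1 was lower and 0 were higher, with a median of -0.21. The lower one was the keratin gene Krt87, 724 bases from Krt7, with 33 and 2 counts and a log2 ratio of -2.09. Eif4b, the nearest measured gene beyond Krt18, had a log2 ratio of -0.53, and Mettl27, 2481 bases from Cldn4, one of -0.56.

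Related genes from 8 lists, none of them in the set, showed a smaller difference. Of 137 such genes 81 were measured, with a median log2 ratio of -0.21, and the rule took 13 as lower and 5 as higher. Over all measured genes it took 5.72% as lower and 5.59% as higher, and these shares stand beside the counts of single lists too. The pool is mixed, with list medians from -0.65 for the other claudins to 0.44 for the repressors of epithelial genes. Cldn9, the only other claudin past the rule, had 108 and 33 counts, 3.35-fold lower (2.25 to 5.12), although Cldn6, which lies 137 bases from it, had none. Among 20 measured tight junction genes 3 were lower and 2 higher. Cxadr, the coxsackievirus and adenovirus receptor of the junction, had 6189 and 2781 counts, 2.28-fold lower (2.18 to 2.39), and Patj, a Crumbs complex scaffold, was 2.18-fold lower (1.99 to 2.40). Jam3, a junctional adhesion molecule also of mesenchymal cells, had 26 and 107 counts, 4.02-fold higher (2.60 to 6.42). Outside the set 5 keratins were measured, 3 lower and 1 higher, of which Krt87 stood in none of the lists. Krt17, a keratin of basal and stressed epithelia, had 147 and 9 counts, 16.7-fold lower (8.58 to 37.3), Krt80 was 2.08-fold lower (1.86 to 2.33), and the basal keratin Krt5 had 18 and 53 counts, 2.87-fold higher (1.66 to 5.21). None of 7 other desmosome and plakin genes passed. The 2 with the most counts, the long genes Dst and Plec, which encode large linkers of filaments to junctions, had ratios of 0.711 (0.687 to 0.735) and 1.22 (1.17 to 1.26). Of 16 other polarity genes 1 passed, Pard6g, a relative of Pard6b, with 77 and 200 counts and a ratio of 2.53 (1.94 to 3.34), the opposite direction to Pard6b.

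Epithelial transcription factors and their repressors were counted from the same lists, beside the same shares of all measured genes (5.72% lower and 5.59% higher). Of 12 measured epithelial regulators 4 were lower and 0 higher. Tfap2a had 382 and 48 counts, 8.16-fold lower (6.03 to 11.3), and the Kruppel-like factor genes Klf4 and Klf5 had ratios of 0.235 (0.192 to 0.286) and 0.304 (0.281 to 0.328). Of 8 measured repressors of epithelial genes 1 was higher and 0 lower, with a median log2 ratio of 0.44. It was Snai2, with 0 and 40 counts, or 2.57 CPM (1.83 to 3.50) in the Lv_AI662270 library. The interval of its 0 counts in the control reaches 0.243 CPM. Zeb1 and Snai1 had 368 and 636 and 107 and 186 counts, ratios of 1.69 (1.48 to 1.92) and 1.70 (1.33 to 2.17) that did not reach the rule. Among 10 measured surface proteases and partners 3 were lower. The protease-activated receptor gene F2rl1 was 4.07-fold lower (3.78 to 4.38), and Cdh1, the E-cadherin gene of adherens junctions, had 2175 and 1030 counts, 2.16-fold lower (2.01 to 2.33).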

How the data were processed

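RNA sequencing of 2 sublines was read from the authors' deposited table. Count columns, deposited without normalization as far as the values show, give whole reads for each gene. CASAVA 1.4, TopHat2 and build mm10 are named in the submitters' processing notes. Which counter, annotation release and strand setting were used is not given in the sources used here. The labels call the material polyadenylated RNA, while the series design text speaks of removal of ribosomal RNA. The deposited FPKM columns divide counts by gene length and by 15391166 in both libraries. The signal columns, counts rescaled by the authors, were left out. From the authors' log2 fold changes and p-values, named so per the file headers, only numbers of genes under a threshold are quoted.

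Libraries were scaled by TMM in edgeR 4.0.16 (R 4.3.3), giving 0.967 (control) and 1.03 (Lv_AI662270). Intervals of CPM are exact Poisson and those of ratios exact Clopper-Pearson, at 95%. They hold for counting error alone, because each group held 1 library. There were no molecular identifiers, so repeated reads of a molecule could make the intervals too narrow. Folds are CPM ratios without the pseudocount, while log2 ratios carry 0.5 CPM and understate the change of low genes. The size rule was tested on simulated data. No p-value was computed. The genes, lists and rules were chosen with earlier results of these data known. Every gene of the set is named, and of each related list up to 3 of those past the rule by size of log2 ratio, or the 2 with the most counts, besides a few named for position, for a marker or for comparison. Some genes counted in the lists are not reported here by name. Promoter windows are from RefSeq, GRCm38.p6. Python 3.11.15 with scipy 1.17.1 and DESeq2 1.42.0 (alternative size factors) were also used. Alternatives covered scaling, pseudocount, minimum level, threshold and the FPKM columns.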

Additional observations from a re-analysis of the deposited data

How the results depend on the processing

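The 6 alternatives that recompute ratios (3 scalings, 2 pseudocounts and FPKM) gave 198 log2 ratios, of which 18 left the counting interval of the main ratio. None of the 11 genes past the rule changed direction under them. These settings shift a ratio too little to reverse a 2-fold difference, so that outcome is no check of direction. No gene of the set was higher under any of 10 alternatives. The number lower was 22 with a threshold of 1.5-fold and 1, Cldn4, with 3-fold, and lay between 8 and 12 under the other 8 alternatives, against 11. The share of all measured genes called lower was 14.3% and 1.97% at those thresholds. Cldn4, Ocln, Krt18, Pard6b, Prkci, Esrp1 and St14 stayed lower in every alternative but the 3-fold threshold, which kept Cldn4 alone, and a minimum mean of 5 CPM, which removed Cldn4 and Dsg2. The median log2 ratio ranged from -0.82 to -0.69. Related genes higher numbered 9 without a filter, 2 with a minimum mean of 5 CPM, 8 at 1.5-fold and 2 at 3-fold, and related genes lower 26 and 6 at these thresholds. No paired analysis was possible because each group held 1 library, and no library could be left out for the same reason. Genes under 3 counts, such as Cldn10 and Dsc2, are at the limit of this depth.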
